A study of Mus musculus with 16 samples.

Results

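The response of the whole wild-type hippocampus to DMXAA was read from the libraries labelled C57BL/6, of which there were 8 among the 16 of the series. They comprised 4 male mice given DMXAA and 4 given vehicle, aged 2 months and 23 days, with 1 animal per library, and no nuclei were split by cell type. DMXAA is a small-molecule agonist of mouse STING that was injected repeatedly into the peritoneum, and the vehicle was its solvent mixture. The other 8 libraries, from *Ifnar1*-/- mice (KO) aged 3 months and 3 days, were used only where the wild-type (WT) response was compared with theirs, and there genotype coincided with age. For each library, the UMI counts (counted molecules) of all barcodes with at least 200 genes and at most 5% of UMIs from mitochondrial genes were summed, which kept 79974 nuclei of 85163 WT barcodes.

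STING is an adaptor of the endoplasmic reticulum that normally responds to cyclic dinucleotides made by cGAS upon DNA in the cytosol, and it drives transcription of type I interferon through TBK1 and IRF3. Interferon binds a receptor of the chains IFNAR1 and IFNAR2, whose Janus kinases phosphorylate STAT factors. Together with IRF9 these bind the interferon-sensitive response element (ISRE) in front of interferon-stimulated genes, which encode antiviral effectors, nucleic acid sensors, antigen presentation proteins and inhibitors of the pathway itself. In the brain, microglia are a known source of and responder to interferon, and neurons and other glia also carry the receptor. In summed libraries, fewer nuclei of a type and less RNA per nucleus cannot be told apart.

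Stretches of the promoters of 3 genes show the element in front of genes with large rises. Its core, GAAA and GAAA with any 2 bases between them, is in capitals. The stretches are given 5′ to 3′ on the strand of the gene and lie in the 250 bases before the annotated start (RefSeq, GRCm38.p6).
*Ifi213*, chr1:173599306-173599375, minus strand: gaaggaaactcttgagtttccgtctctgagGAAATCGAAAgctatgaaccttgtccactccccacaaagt
*Ddx60*, chr8:61928004-61928086, plus strand: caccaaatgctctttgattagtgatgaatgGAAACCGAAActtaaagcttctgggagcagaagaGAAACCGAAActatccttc
*Bst2*, chr8:71537557-71537632, minus strand: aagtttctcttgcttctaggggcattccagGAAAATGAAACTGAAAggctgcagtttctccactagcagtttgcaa
The promoter of *Ddx60* held the core at 2 places and that of *Bst2* at overlapping positions. The 10 largest rises were taken among called genes with a mean of at least 1 CPM (a unit explained below). Of these 10 genes, 6 were in the promoter table. The core was found in 4 of the 6, searched from 250 bases before to 50 after the start. In *Eif2ak2* it lay after the start.

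With all 8 libraries, 23 of 21207 genes tested were called higher with DMXAA (0.108%) and 0 were called lower (edgeR's quasi-likelihood test, with a Benjamini-Hochberg adjusted p under 0.05 and a log2 change beyond 0.1 in either direction). At an unadjusted p under 0.05 there were 423 genes higher and 199 lower, and DESeq2 called 133 higher and 3 lower. By edgeR, 0 genes were called when any 1 vehicle library or DMXAA replicate 2 was left out (418 to 917 at an unadjusted p under 0.05). Among the 23 were *Lcn2*, *Ifi213*, *Ifi27l2a*, *H2-Q6*, *Ifi209*, *Ifi204*, *Ddx60*, *Oas1a*, *Bst2*, *Trim30b*, *H2-Q7*, *Lgals3bp*, *Oas2*, *Sp100*, *Iigp1*, *Gm19684*, *Eif2ak2*, *Trim30a*, *Xaf1*, *H2-K1*, *Epsti1* and *B2m*. On the lists used here, 16 of them were interferon-stimulated genes and 4 belonged to MHC class I presentation, which carries peptides to cytotoxic T cells. Their log2 fold changes ran from 1.10 to 5.51 with a median of 2.54. Most were scarce in the tissue, since 13 had a vehicle mean under 1 CPM (the usual unit for the share of a library's UMIs that a gene takes, here scaled by TMM) and 16 had a DMXAA mean under 10 CPM.

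Without DMXAA replicate 3, 67 of 21552 genes were called higher (0.311%) and 1 was called lower (0.00464%), 68 in all (0.316%). At an unadjusted p under 0.05 there were 1837 genes higher and 1672 lower, and DESeq2 called 417 higher and 244 lower. The small number of falls is thus that of this edgeR fit, and other edgeR settings called more, as given below with *Gabra4*. Leaving out a further library gave 10 to 154 called genes, with 10, 12 and 14 without vehicle replicate 4, 3 or 1 and 154 without vehicle replicate 2. All 23 genes called with 8 libraries were among the 68. Of the 67, 46 were on the interferon-stimulated list and 8 on the MHC class I list, and the median log2 fold change was 2.62. The median standard error per gene was 0.151 without the library and 0.216 with it. The reason for giving both results is that this library stood apart from the other 7. The choice to leave it out was made with earlier results of these data known, and the adjusted p-values without it follow that choice.

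DMXAA replicate 3 held the most nuclei of its group, 11561 against 9311 to 9427 in the other DMXAA libraries, and its median of 2182 genes per nucleus was below the range of 2507 to 2898 in the other 7 WT libraries. Of 16186 genes with a mean of at least 1 CPM, 14.3% were more than 2-fold below the median of the other 7 libraries, against 0.117% to 0.995% in each of those. Its scaling factor (TMM) was 0.785, and the others lay between 0.998 and 1.06. The share more than 2-fold lower was larger among short and noncoding genes. It was 34.0% of genes under 10000 bases and 3.69% of those of at least 100000 bases, and 65.7% of antisense transcripts and 8.70% of protein-coding genes. *Malat1*, a nuclear long noncoding RNA, had 31721 CPM in it and 50076 to 88121 CPM in the other 7. *Ube3a*, a ubiquitin ligase, had 309 CPM against 682 to 1252 CPM. Across the 16186 genes, the log2 difference of this library from the mean of the other DMXAA libraries correlated with that of KO vehicle from WT vehicle libraries (Pearson r = 0.818, Spearman rho = 0.850). These differences have no library in common, the genes share the libraries behind each, and the correlation is a description. Which libraries were prepared together is not given in the sources used here, and the bearing of this pattern on the gene values was not tested.

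**Figure D1:**
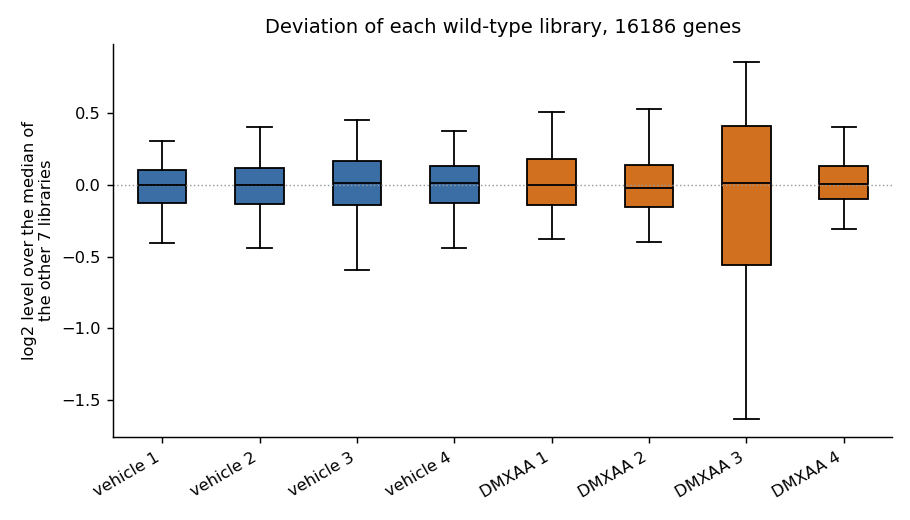
Deviation of each WT library (horizontal axis) from the median of the other 7, as a log2 ratio (vertical axis) over 16186 genes with a mean of at least 1 CPM. Boxes span the middle of the genes between quartiles with a line at the median, and whiskers reach the 5th and 95th percentile. DMXAA replicate 3 spreads from -1.63 at the 5th to 0.85 at the 95th percentile, wider than each of the other libraries.

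In the other measures of quality the groups overlapped. The WT libraries held 65524033 to 90156541 UMIs from 9217 to 11561 nuclei, and 0.0996% to 0.234% of UMIs were mitochondrial. Exact permutation tests on nuclei, UMIs, median UMIs, median genes and mitochondrial share gave two-sided p from 0.286 to 0.943 (n = 4 each, where 0.0286 is the smallest possible). Pairs of WT libraries shared 16 to 38 barcodes. Markers of hippocampal excitatory, dentate granule, CA1, CA3 and inhibitory neurons and of all glia were present in every library.

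Genes that act upstream of interferon were examined next. Of the DNA and RNA sensing genes *Cgas*, *Tmem173* (which encodes STING), *Tbk1*, *Ikbke*, *Mavs* and *Traf3*, 0 of 6 were called with or without replicate 3 (of all genes, 0.108% and 0.316% were), and all 6 overlapped between groups. *Cgas*, the DNA sensor, had 1.87, 2.26, 2.13 and 1.74 CPM with vehicle and 2.85, 2.58, 2.77 and 2.04 CPM with DMXAA. Of 20 interferon genes in the files, 12 had 0 UMIs in all 8 libraries, *Ifnb1* among them, which encodes interferon beta. *Ifnk*, an interferon best known from skin, was the only one with enough counts to be tested, at 39 UMIs with vehicle and 46 with DMXAA, and it was not called. A count of 0 at this depth allows up to 3 molecules over a group, and this bound covers counting error only.

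Of the receptor chains and Janus kinases, 0 of 9 were called with 8 libraries and 0 of 9 without replicate 3, which for so few genes is near the share over all genes. *Ifnar1* had 17.4, 17.4, 17.0 and 18.0 CPM with vehicle and 17.6, 16.2, 17.9 and 15.8 CPM with DMXAA, so its groups overlapped. The lowest log2 fold change of the 9 genes was -0.05 and the highest 0.60.

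Among the transcription factors of the pathway, *Irf7* (chr7:141262706-141266481), which amplifies interferon transcription, had 0.192 to 0.325 CPM with vehicle and 9.39, 3.15, 1.23 and 2.98 CPM with DMXAA. All DMXAA values were above the vehicle values, but the gene missed the threshold with 8 libraries (log2 4.15, edgeR adjusted p = 0.0522) and was called without replicate 3 (log2 4.45 ± 0.45, edgeR adjusted p = 0.00727). *Irf9*, the DNA-binding part of the complex that acts on the ISRE, had 8.21 to 11.3 CPM with vehicle and 39.1, 24.4, 18.7 and 23.05 CPM with DMXAA, and it was called without replicate 3 (log2 1.52, edgeR adjusted p = 0.0148). *Stat2* had 28.8 to 32.4 CPM with vehicle and 93.4, 48.0, 44.3 and 43.3 CPM with DMXAA. Its groups did not overlap, and it was not called in either comparison. *Irf3*, which acts before interferon is made, overlapped between groups.

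The interferon-stimulated list as a whole held 109 genes that were tested with 8 libraries. Of these, 16 rose (14.7%, against 0.108% of all genes tested), 0 fell, and 108 had a positive log2 fold change, against 11300 of 21207 genes in all. The median was 1.495 on the log2 scale, against 0.01 over all genes tested. In 75 of the 109 genes every DMXAA library lay above every vehicle library, which held for 1.55% of all genes, and the opposite order held for 0.990% of all genes and 0 of the 109. Without replicate 3, 46 of 112 genes rose, the median was 1.64, and 87 were above in every library, against 8.38% of all genes above and 7.30% below. Counting the genes that passed a filter on counts favours genes that are high in one group, and the list was chosen with earlier results of these data known.

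**Figure D2:**
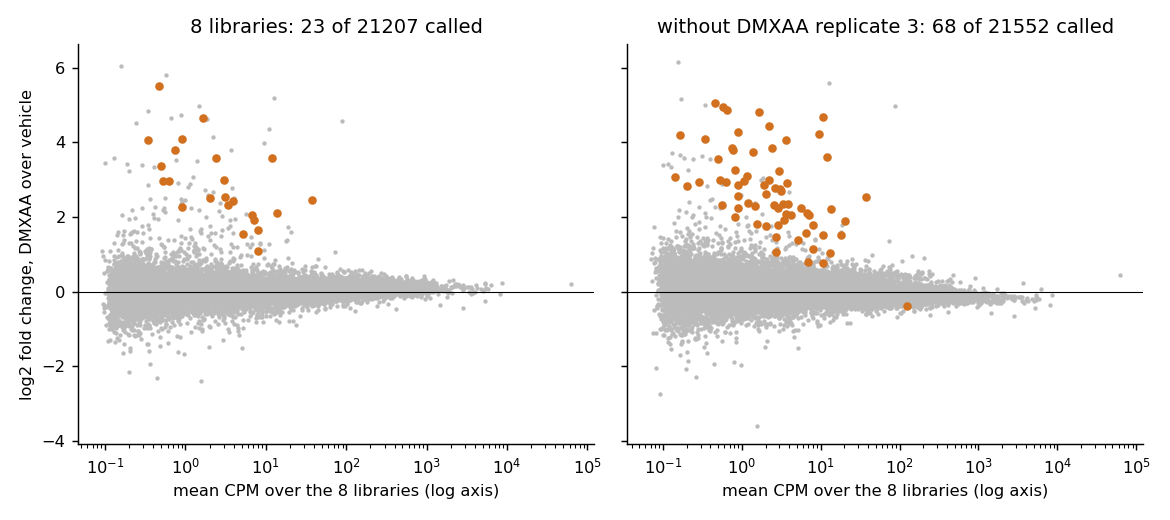
Log2 fold change of DMXAA over vehicle against the mean CPM over the 8 WT libraries (log axis), 1 point a gene, with called genes in orange, for all 8 libraries (left, 21207 genes) and without DMXAA replicate 3 (right, 21552 genes). The 23 genes called on the left all lie above 0, between 1.10 and 5.51, and on the right *Gabra4* alone lies below it.

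DMXAA replicate 1 carried the largest response. Over the 109 genes, the median log2 ratio to the vehicle mean was 1.98 in replicate 1, 1.05 in replicate 2, 0.96 in replicate 3 and 0.97 in replicate 4, and single vehicle libraries lay between -0.15 and 0.15. Replicate 1 was the highest of the 4 DMXAA libraries for 96 of the 109 genes. Replicate 3, despite its different composition, was above every vehicle library for 90 of them, and was the lowest of the 4 for 52. Summed over the list, vehicle libraries had 637 to 663 CPM and DMXAA libraries had 1488, 988, 1024 and 912 CPM.

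Among 9 tested genes of a list of nucleic acid sensors, which includes Toll-like receptors, 2 rose with 8 libraries and 2 without replicate 3 (all genes, 0.108% and 0.311%). Their median log2 fold change was 1.28. *Ddx60* (ENSMUSG00000037921, chr8:61928087-62038244), an antiviral helicase and a cofactor of RIG-I, had 1.84, 2.44, 1.57 and 1.57 CPM with vehicle. With DMXAA it had 37.9, 17.2, 19.8 and 13.6 CPM. The lowest DMXAA library was well above the highest vehicle library, and the log2 fold change was 3.58 ± 0.34 (SE, n = 4 each, edgeR adjusted p = 0.0265). It was the single gene still called when just genes with a mean of at least 1 CPM were tested (edgeR adjusted p = 0.0457), and its call was lost without any 1 vehicle library or without DMXAA replicate 2 (edgeR adjusted p = 0.0505 to 0.164).

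*Eif2ak2* (chr17:78852564-78882573), which encodes the kinase PKR that halts translation on double-stranded RNA, had 4.73, 6.42, 4.85 and 4.38 CPM with vehicle and 37.5, 17.7, 16.6 and 16.5 CPM with DMXAA. Its groups did not overlap, and the log2 fold change was 2.12 ± 0.29 (SE, n = 4 each, edgeR adjusted p = 0.0390). The sensors *Ifih1* (MDA5) and *Ddx58* (RIG-I) also had every DMXAA library above every vehicle library but were not called, at log2 fold changes of 1.57 and 1.28. *Adar*, an editor of double-stranded RNA, had overlapping groups and a log2 fold change of 0.10.

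The 2′-5′-oligoadenylate synthetases make a messenger that starts the decay of viral RNA. Of 7 genes of this pathway, 2 rose with 8 libraries and 3 without replicate 3 (all genes, 0.108% and 0.311%), and the median log2 fold change was 3.37. *Oas2* (chr5:120730333-120749853) had 0.588, 0.797, 0.411 and 0.605 CPM with vehicle and 5.78, 2.57, 2.74 and 2.71 CPM with DMXAA (log2 2.52 ± 0.34, SE, n = 4 each, edgeR adjusted p = 0.0337). Replicate 1 was again the highest, and the other DMXAA libraries were close together. *Oasl2* (chr5:114896936-114912234), which augments RNA sensing, had 0.796 to 1.59 CPM with vehicle and 42.6, 12.6, 7.12 and 9.37 CPM with DMXAA, and was called without replicate 3 (log2 4.24 ± 0.52, edgeR adjusted p = 0.0138). *Oas1a*, which rose, has near-identical neighbours among which reads could be split, so its share is uncertain.

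IFIT proteins bind foreign RNA caps and block their translation, and 0 of 6 genes rose with 8 libraries and 2 without replicate 3 (of all genes, 0.108% and 0.311% rose). Though 0 of 6 is near that share, all 6 had positive log2 fold changes with 8 libraries, with a median of 1.21. In 3 of them every DMXAA library lay above every vehicle library, as in 1.55% of all genes. *Ifit1* (chr19:34640871-34650009) had 1.14, 1.34, 0.736 and 0.773 CPM with vehicle and 44.1, 23.1, 5.72 and 9.51 CPM with DMXAA. Replicate 1 was the highest and replicate 3 the lowest DMXAA library, all DMXAA values were above all vehicle values, and the gene lay at the threshold with 8 libraries (edgeR adjusted p = 0.05004). Without replicate 3 its log2 fold change was 4.69 ± 0.48 (SE, edgeR adjusted p = 0.00727). *Ifit3* was called without replicate 3 at 2.87, and reads may be shared with its near copy *Ifit3b*.

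Of the PYHIN family of DNA-binding proteins, 3 of 8 genes rose with 8 libraries and 6 of 10 without replicate 3 (all genes, 0.108% and 0.311%), at a median log2 fold change of 3.22. *Ifi213* (ENSMUSG00000073491, chr1:173566283-173599274) had 0.0768, 0.133, 0.162 and 0.123 CPM with vehicle and 6.61, 2.61, 1.89 and 1.53 CPM with DMXAA. That was a ratio of means of 25.5 and a log2 fold change of 4.65 ± 0.55 (SE, n = 4 each, edgeR adjusted p = 0.0265). It was the largest rise among the genes called with 8 libraries that had a mean of at least 1 CPM. *Ifi204* (chr1:173747293-173766943), the mouse relative of the human DNA sensor IFI16, had 0.258 to 0.473 CPM with vehicle and 8.60, 4.59, 1.79 and 2.79 CPM with DMXAA (log2 3.59 ± 0.51, edgeR adjusted p = 0.0424). In both genes the groups were far apart, with replicate 1 the highest. *Ifi207* (chr1:173723427-173741747) had 0.213 to 0.340 CPM with vehicle and 4.07, 1.76, 1.05 and 1.22 CPM with DMXAA, and was called without replicate 3. These genes are close copies of each other, and how reads were divided among them is uncertain.

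Among other antiviral effectors, 4 of 20 rose with 8 libraries and 8 of 20 without replicate 3 (all genes, 0.108% and 0.311%), at a median log2 fold change of 1.13. *Bst2* (chr8:71534255-71537456), the tetherin that holds budding virions at the cell surface, had 0.524, 0.901, 0.649 and 0.571 CPM with vehicle and 8.63, 4.55, 2.50 and 5.55 CPM with DMXAA (log2 3.01 ± 0.38, SE, n = 4 each, edgeR adjusted p = 0.0267). *Lgals3bp* (chr11:118392751-118402092), a secreted galectin-binding glycoprotein, had 0.729, 0.974, 0.855 and 1.06 CPM against 7.20, 5.48, 2.58 and 5.79 CPM (log2 2.54 ± 0.31, edgeR adjusted p = 0.0267). In both, replicate 3 was the lowest DMXAA library yet above all vehicle libraries.

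*Xaf1* (chr11:72301629-72313733), a promoter of apoptosis that antagonises XIAP, had 3.20, 3.22, 3.20 and 2.43 CPM with vehicle and 17.1, 11.2, 7.25 and 9.84 CPM with DMXAA (log2 1.91 ± 0.25, SE, n = 4 each, edgeR adjusted p = 0.0337). *Ifi27* (chr12:103434211-103440239) behaved differently in replicate 3. It had 8.90, 13.4, 10.7 and 7.51 CPM with vehicle and 35.2, 39.3 and 39.3 CPM in DMXAA replicates 1, 2 and 4, but 9.83 CPM in replicate 3, inside the vehicle range. It was not called with 8 libraries (edgeR adjusted p = 0.447) and was called without replicate 3 (log2 1.90 ± 0.17, edgeR adjusted p = 0.00535). *Ifi27l2a*, its neighbour on chromosome 12, rose with 8 libraries and had 1.07 CPM in replicate 3, above 0.0512 to 0.207 CPM with vehicle.

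The GTPases of cell-autonomous immunity, which act on vacuoles of pathogens, were read as guanylate-binding proteins and immunity-related GTPases. Of 8 guanylate-binding proteins 0 rose with 8 libraries and 2 (*Gbp3* and *Gbp6*) without replicate 3. Of 6 immunity-related GTPases 1 rose with 8 libraries and 3 (*Iigp1*, *Irgm1* and *Gm4951*) without it. Of all genes, 0.108% and 0.311% rose, so 0 of 8 is near that share. Even so, all 8 guanylate-binding proteins had positive log2 fold changes with 8 libraries, with a median of 1.35. The median of the 6 immunity-related GTPases was 1.92, and that of all genes tested was 0.01. Every DMXAA library lay above every vehicle library for 4 of the 8 and 5 of the 6, against 1.55% of all genes. *Iigp1* (chr18:60376027-60392634) had 0.947, 1.73, 0.995 and 0.773 CPM with vehicle and 7.59, 6.05, 5.40 and 3.33 CPM with DMXAA (log2 2.34 ± 0.32, SE, n = 4 each, edgeR adjusted p = 0.0405). Its groups did not overlap.

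Schlafen genes, which restrict viral protein synthesis, had 0 of 5 called with 8 libraries and 4 of 5 without replicate 3 (all genes, 0.108% and 0.316%), at a median log2 fold change of 2.20. All 5 had every DMXAA library above every vehicle library, as did 1.55% of all genes. *Slfn5* (chr11:82951349-82964840) had 0.482 to 0.591 CPM with vehicle and 4.11, 2.04, 1.86 and 1.55 CPM with DMXAA (log2 2.29 ± 0.32 without replicate 3, edgeR adjusted p = 0.0232).

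TRIM ubiquitin ligases and PARP ADP-ribosyltransferases had 2 of 19 genes called with 8 libraries, *Trim30a* and *Trim30b*, and 8 of 19 without replicate 3 (all genes, 0.108% and 0.316%). *Trim30a* had 2.38 to 2.86 CPM with vehicle and 16.6, 8.86, 9.35 and 8.20 CPM with DMXAA, with no overlap (log2 2.06 ± 0.24, SE, n = 4 each, edgeR adjusted p = 0.0265). Of 8 nuclear body genes, *Sp100* (chr1:85649988-85709998), a scaffold of PML bodies, rose from 1.36, 1.64, 1.02 and 0.852 CPM to 9.23, 4.84, 7.64 and 4.69 CPM (log2 2.44 ± 0.30, edgeR adjusted p = 0.0267). *Pml* itself had overlapping groups. *Phf11d* (chr14:59347407-59365470), a PHD finger gene, had 0.190 to 0.295 CPM with vehicle and 5.93, 1.87, 1.17 and 1.37 CPM with DMXAA and was called without replicate 3 (log2 3.74 ± 0.51, edgeR adjusted p = 0.0214).

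Inhibitors and ISG15 conjugation genes, which limit or modify the response, had 0 of 9 genes called with 8 libraries and 3 of 9 without replicate 3 (of all genes, 0.108% and 0.316% were called). *Usp18* (chr6:121245906-121270917), which removes ISG15 and blocks the receptor, had 0.314 to 0.679 CPM with vehicle and 16.01, 4.83, 2.83 and 3.60 CPM with DMXAA (log2 4.07 ± 0.53 without replicate 3, edgeR adjusted p = 0.0180). *Isg15* itself, a ubiquitin-like modifier, had 0.422 to 0.728 CPM with vehicle and 8.80, 2.66, 0.989 and 2.92 CPM with DMXAA, and *Uba7*, its activating enzyme, was the remaining one called. For all of these every DMXAA library was above the vehicle range. *Socs1* and *Socs3*, inhibitors of cytokine receptors, overlapped between groups.

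**Figure D3:**
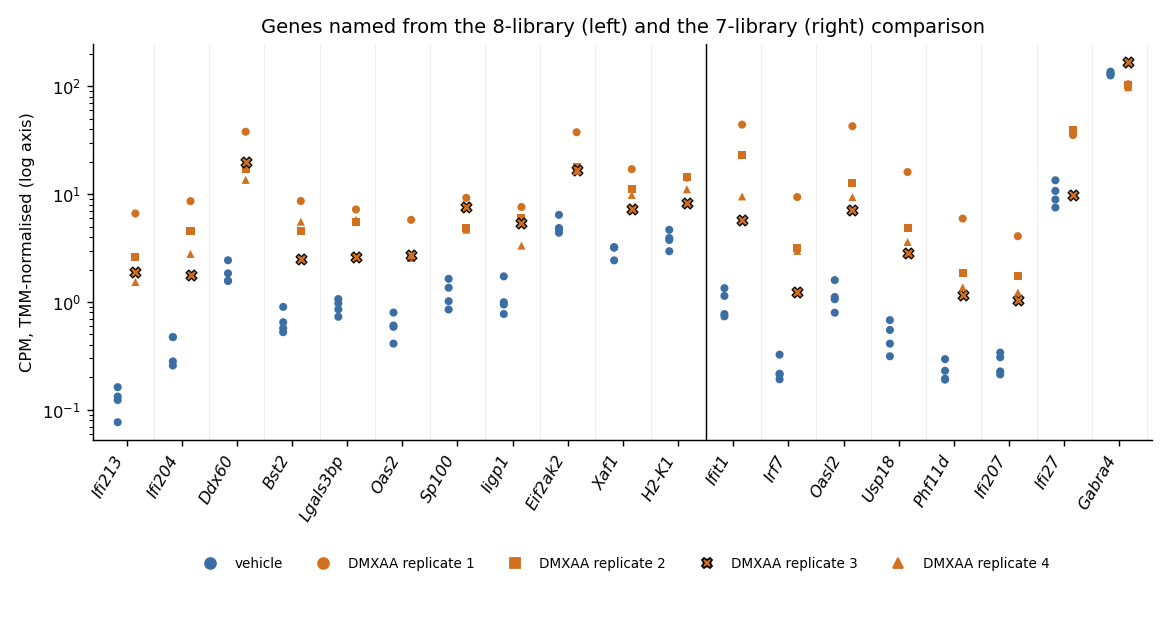
Levels of named genes in every WT library, in CPM on a log axis, with vehicle in blue, DMXAA in orange by replicate and DMXAA replicate 3 outlined. Genes left of the line were named from the 8-library comparison and those right of it from the 7-library comparison. For *Oas2* and *Ddx60* all DMXAA points lie above all vehicle points, and for *Ifi27* and *Gabra4* replicate 3 lies away from the other DMXAA points.

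MHC class I presentation had 4 of 21 genes called higher with 8 libraries and 8 of 21 without replicate 3 (all genes, 0.108% and 0.311%). All 21 had positive log2 fold changes, against 11300 of 21207 genes tested, with a median of 1.10. *B2m* (chr2:122147686-122153083), the shared light chain, had 4.81, 4.52, 5.84 and 5.31 CPM with vehicle and 12.9, 11.1, 9.89 and 10.1 CPM with DMXAA (log2 1.10 ± 0.14, SE, n = 4 each, edgeR adjusted p = 0.0291). *H2-K1* (chr17:33996017-34000347), a classical heavy chain, had 2.95, 4.67, 3.92 and 3.75 CPM against 14.2, 14.5, 8.33 and 11.1 CPM (log2 1.66 ± 0.21, edgeR adjusted p = 0.0291). Both had groups that did not overlap, and in neither was replicate 1 far above the other DMXAA libraries.

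*H2-D1*, the other classical heavy chain of this strain, had 5.68 to 7.25 CPM with vehicle and 18.8, 20.8, 6.44 and 15.2 CPM with DMXAA. Replicate 3 was inside the vehicle range, and the gene was called only without it (log2 1.52, edgeR adjusted p = 0.00477). *Nlrc5*, the transactivator of class I genes, and *Tapbp*, which encodes tapasin of the loading complex, were also called without replicate 3. *H2-Q6* and *H2-Q7*, which rose with 8 libraries, are near copies and their split of reads is uncertain. Of MHC class II genes 0 of 7 were called in either comparison, near the share over all genes, and their median log2 fold change was -0.65. *H2-Eb1* had 0.291 to 0.635 CPM with vehicle and 0.106 to 0.235 CPM with DMXAA (log2 -1.41, edgeR adjusted p = 0.498).

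**Figure D4:**
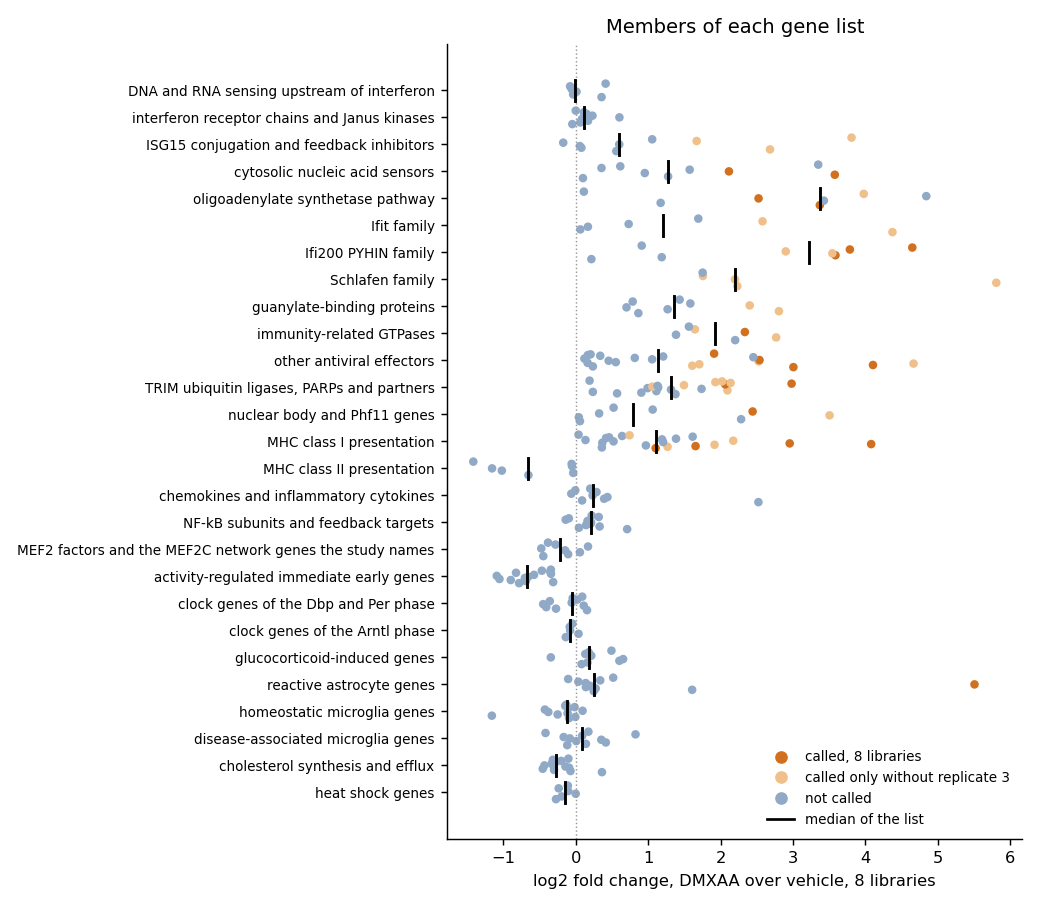
Log2 fold change of the tested members of 27 gene lists (vertical axis) in the 8-library comparison, 1 point a gene, coloured by whether it was called with 8 libraries, called just without replicate 3 or not called, with a bar at the median of each list. The oligoadenylate synthetase and PYHIN lists have the highest medians plotted, 3.37 and 3.22, and below the MHC class I list the medians run from -0.67 to 0.25.

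Several genes called without replicate 3 lay next to each other. With neighbours no more than 500000 bases apart, 19 of the 67 fell into 4 clusters of at least 3 genes. How often tested genes in general lie this close was not counted. Of all genes tested, 0.311% were called higher. Each span ran from the first to the last called gene, so uncalled neighbours beyond its ends were not counted. The shares within spans are therefore high by construction. On chromosome 1 (173468485 to 173766943), all 6 genes tested in the span were called, *Ifi206*, *Ifi214*, *Ifi213*, *Ifi209*, *Ifi207* and *Ifi204*. Over the whole PYHIN family it was 6 of 10 tested. On chromosome 7 (104244457 to 104507849) 5 of 9 were called, *Trim34a* and *Trim30a* to *Trim30d*. The span on chromosome 11 (82951349 to 83190216) had 4 of 6 called, *Slfn5*, *Slfn8*, *Slfn2* and *Slfn4*, and that on chromosome 17 (35262730 to 35443773) had 4 of 5, *H2-D1*, *H2-Q4*, *H2-Q6* and *H2-Q7*. These are families of near copies, and neighbours in them may share reads.

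Promoters of called genes were searched for the ISRE core (GAAA, any 2 bases, GAAA) and the core of the gamma-activated site (GAS: TTC, any 3 bases, GAA) on both strands, from 250 bases before to 50 after the start. Genes were counted, each once if any of its promoters matched, and called genes missing from the promoter table were left out. That left 17 of the 23 genes called with 8 libraries and 51 of the 67 called higher without replicate 3. The ISRE core was found for 7 of the 17 (41.2%) and 21 of the 51 (41.2%). It was found for 3.69% of tested genes and 3.99% of all 27025 genes in the promoter table. The GAS core was found for 3 of 17 (17.6%) and 6 of 51 (11.8%), against 8.55% of tested genes. The sequences of *Ifi213*, *Ddx60* and *Bst2* given above are among those with the ISRE core, and *Lgals3bp* and *Sp100* had no match in this window. A match is a description of letters and was not tested as a site.

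Some called genes were on none of the lists. *Epsti1*, an epithelial and stromal interaction gene, had 2.30 to 2.92 CPM with vehicle and 8.20, 6.17, 9.73 and 6.42 CPM with DMXAA (log2 1.54 ± 0.19, SE, n = 4 each, edgeR adjusted p = 0.0267). *Gm19684* was the other such gene with 8 libraries. Without replicate 3, 12 of the 67 were on no list, among them *C4b* of the complement cascade, the lysosomal protease *Ctss* and the zinc finger gene *Plagl1*. *C4b* had 2.52 to 4.98 CPM with vehicle and 11.1, 11.4, 7.71 and 8.34 CPM with DMXAA.

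*Lcn2* (chr2:32384633-32388252), an iron-siderophore carrier of neutrophils and reactive astrocytes, had the largest rise of the 23, from 6 UMIs over the vehicle libraries to 263 over the DMXAA libraries. In CPM these were 0.0128, 0.0295, 0.0324 and 0 with vehicle and 0.984, 0.767, 1.64 and 0.247 with DMXAA (log2 5.51 ± 0.77, SE, n = 4 each, edgeR adjusted p = 0.0405). The other reactive astrocyte genes, 10 of 11 tested, were not called, which for so few genes is near the share over all genes. *Gfap* had overlapping groups. Of 5 neutrophil markers 4 were found in every library, and of the 4 tested 0 were called with 8 libraries and 1 without replicate 3. Of all genes, 0.108% and 0.316% were called, so 0 of 4 is near that share. The summed level of the 5 was 5.08 to 7.37 CPM with vehicle and 11.0, 11.7, 34.0 and 10.5 CPM with DMXAA. Most of the sum was *Csf3r*, the receptor of granulocyte colony-stimulating factor, except in DMXAA replicate 3, with 4.88 to 6.64 CPM with vehicle and 9.06, 9.12, 13.1 and 8.68 CPM with DMXAA (log2 0.75, edgeR adjusted p = 0.373). The 5 monocyte markers had a sum of 0.562 to 0.842 CPM against 1.29, 3.03, 4.90 and 0.895 CPM. Both sums were higher in every DMXAA library, but of the monocyte markers *Ccr2*, a chemokine receptor, had 0.206 to 0.325 CPM with vehicle and 0.0236 to 0.223 CPM with DMXAA (log2 -0.70), and *S100a4* overlapped as well (log2 0.24). *Plac8* was called without replicate 3 (log2 2.94, edgeR adjusted p = 0.0202) and *Chil3* in neither comparison. Of the neutrophil markers, *Retnlg* and *Ly6g* overlapped between groups. *Retnlg* had 0.151 to 0.472 CPM with vehicle and 0.471, 0.335, 4.51 and 0.624 CPM with DMXAA, and *Ly6g* was not tested. *S100a9* was higher in every DMXAA library but was called in neither comparison. The sums of T cell and B cell markers overlapped. *S100a8*, a neutrophil alarmin, had 0.0895, 0.103, 0.0216 and 0.0448 CPM with vehicle and 0.457, 0.544, 5.44 and 0.377 CPM with DMXAA, and it was called without replicate 3 (log2 2.85 ± 0.40, edgeR adjusted p = 0.0239). The part of such cells in the rise of *Lcn2* was not tested.

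*Gabra4* (chr5:71569749-71658308), a subunit of extrasynaptic GABA-A receptors, was the single gene called lower by edgeR in these fits, and only without replicate 3. Other edgeR settings called more falls. With 8 libraries there were 5 with 4 groups in the fit and 1 with at most 4000 genes per barcode, and without replicate 3 there were 75 and 19, and 4 without a filter on low counts and 3 with robust dispersion. It had 131, 126, 131 and 136 CPM with vehicle and 104, 102, 168 and 97.9 CPM with DMXAA. Replicate 3 was the highest of all 8 libraries, whereas the other DMXAA libraries were the lowest. The log2 fold change was -0.37 ± 0.06 (SE, edgeR adjusted p = 0.0417) without replicate 3 and -0.15 with it. The call was lost among genes with a mean of at least 1 CPM (edgeR adjusted p = 0.0619) and with at most 4000 genes per barcode (edgeR adjusted p = 0.0551), and leaving out any 1 further library except vehicle replicate 2 also ended it (edgeR adjusted p = 0.118 to 0.173). A list of 14 activity-regulated immediate early genes, chosen here, had 0 genes called in either comparison. A list of 8 genes, MEF2 factors and MEF2C network genes that the study names, also had 0 called. For lists so short both are near the share over all genes. Of the 8 genes of the MEF2 list, 6 had negative log2 fold changes with 8 libraries, with a median of -0.21. Without replicate 3 the median was -0.38 and the highest value was -0.03. In the fit that includes the KO libraries, the median was -0.14 in KO, and the median difference of WT from KO effects was -0.001. The study reported *Mef2c* and some of its targets lower in excitatory neurons, tested by nucleus, and less MEF2C protein in CA1 neurons. The values here cover all cell types together and are tested by library, which is a different measure. *Mef2c*, a transcription factor of neurons and microglia, had 620, 285, 570 and 465 CPM with vehicle and 441, 251, 395 and 308 CPM with DMXAA, so the groups overlapped (log2 -0.48 with 8 libraries and -0.55 without replicate 3, edgeR adjusted p = 0.342 for the latter). All 14 immediate early genes had negative log2 fold changes, with a median of -0.67, and overlapping groups. *Fos* had 8.61, 1.83, 13.5 and 7.01 CPM with vehicle and 10.5, 4.06, 2.32 and 2.84 CPM with DMXAA.

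The lists of cytokines and of NF-κB genes had no called member, which for lists so short is near the share over all genes. Of 9 cytokine genes tested 0 were called with 8 libraries and 0 of 11 without replicate 3, and of 11 NF-κB genes 0 were called in both. *Ccl12*, a monocyte chemokine, had 0.101 to 0.243 CPM with vehicle and 2.88, 0.377, 0.0989 and 0.412 CPM with DMXAA, so that replicate 1 was far above the other libraries, replicates 2 and 4 lay above the vehicle range and replicate 3 below it. Of homeostatic microglial genes 0 of 12 were called, again near that share. Among them, *Fcrls* (chr3:87250758-87263738), an Fc receptor-like scavenger gene of microglia, had 7.25, 6.35, 5.14 and 7.24 CPM with vehicle and 2.85, 2.75, 2.09 and 3.93 CPM with DMXAA. Its groups did not overlap, but the fold change missed the threshold (log2 -1.16 ± 0.21, SE, n = 4 each, edgeR adjusted p = 0.119). Summed microglial markers overlapped, at 134 to 192 CPM with vehicle and 111 to 199 CPM with DMXAA.

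The WT response was then compared with that of KO mice, labelled as lacking *Ifnar1*, a chain of the interferon receptor, in a fit of all 16 libraries. On the scale of this fit *Ifnar1* had 11.6 to 12.9 CPM in the KO and 14.4 to 16.5 CPM in the WT libraries. All KO values were lower, but most of the transcript remained, and the part of the gene that was disrupted is not given in the sources used here, so its counts do not check the label. The difference between the effects was called for 11 of 21648 genes (0.0508%), 10 higher in WT (0.0462%) and 1 lower (0.00462%), with 1498 at an unadjusted p under 0.05. Leaving out 1 library gave 3 to 34 genes, with 34 without WT DMXAA replicate 3 and 3 or 4 without WT vehicle replicates 1, 3 or 4, KO vehicle replicates 2 or 3, or KO DMXAA replicates 1, 2 or 3, and in each of the latter cases most of the 11 calls were lost. In KO, 0 genes were called by edgeR (1353 at an unadjusted p under 0.05). The WT side of this comparison holds the same libraries as above, so the values are given side by side and not as independent support. Over the interferon-stimulated list the median log2 fold change in KO was -0.02.

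Among the 11 genes, *Ddx60* differed most, with a log2 difference of 3.71 ± 0.43 (SE of the term, n = 4 per group, edgeR adjusted p = 0.00437). On the scale of this fit, it had 1.44 to 2.19 CPM in WT vehicle and 12.3 to 34.5 CPM in WT DMXAA libraries, and 0.795 to 1.74 CPM over all 8 KO libraries. Every KO library lay below every WT DMXAA library. Genes with a larger effect in WT also included *Lgals3bp*, *Sp100*, *Iigp1*, *Slfn5*, *Eif2ak2*, *Trim30a*, *Xaf1* and *B2m*, with differences of 1.16 to 2.73.

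*Fcrls* was the gene with a lower effect in WT, by -1.42 ± 0.24 (SE, n = 4 each, edgeR adjusted p = 0.0458). It had 4.76 to 6.64 CPM in WT vehicle, 1.91 to 3.58 CPM in WT DMXAA and 3.78 to 5.82 CPM over the KO libraries. For *Lcn2* the difference was not called (edgeR adjusted p = 0.745). Its log2 fold change in KO was 2.42, on 4 UMIs with vehicle and 24 with DMXAA, and was not called (edgeR adjusted p = 0.724). *Pomc*, a hormone precursor of the pituitary and hypothalamus, was called in WT without replicate 3. It had 0.504 to 1.30 CPM with WT vehicle and 6.83, 6.57, 0.155 and 4.35 CPM with WT DMXAA, so replicate 3 lay below every vehicle library. With all libraries the log2 difference between WT and KO effects was 0.12 and was not called (edgeR adjusted p = 0.980). In KO its log2 fold change was 2.25 and was not called (edgeR adjusted p = 0.724). On the scale of this fit it had 0.101 to 0.237 CPM with KO vehicle and 0.250, 2.16, 0.214 and 0.906 CPM with KO DMXAA. *Gh*, growth hormone, had 0.571 to 18.6 CPM with WT vehicle and 6.30, 12.1, 0 and 659 CPM with WT DMXAA, so that replicate 4 alone was high. *Prl*, prolactin, had 0.0448 to 1.64 CPM with WT vehicle and 4.60, 12.99, 0 and 81.5 CPM with WT DMXAA, higher in all but replicate 3, and was not called (edgeR adjusted p = 0.0946 without replicate 3). The part of neighbouring tissue in these genes was not tested.

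**Figure D5:**
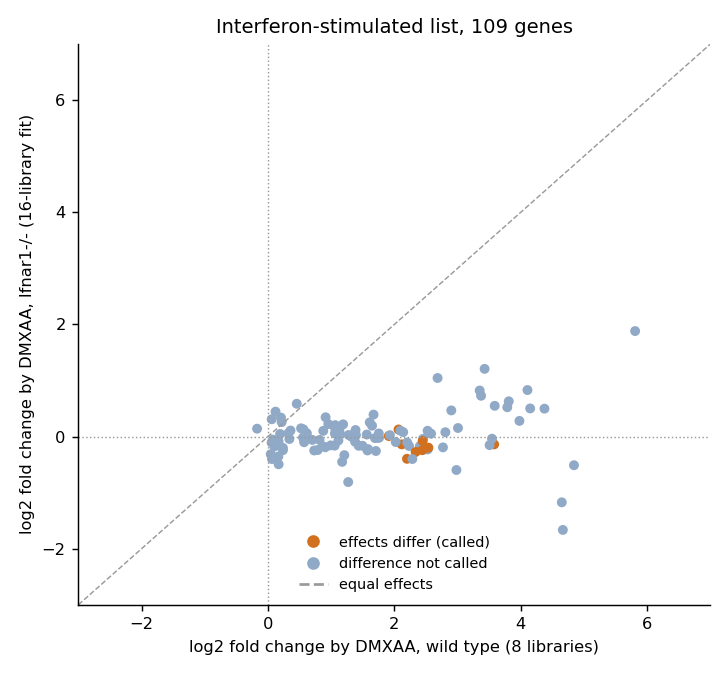
Log2 fold change of DMXAA over vehicle in WT (horizontal, fit of 8 libraries) and in KO (vertical, fit of 16 libraries) for 109 genes of the interferon-stimulated list, 1 point a gene, with the 9 whose effects were called different in orange and a dashed line of equal effects. WT values run from -0.17 to 5.81 and KO values from -1.67 to 1.88, and 6 genes lie above the line.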

How the data were processed

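Nuclei of 16 mouse hippocampi were profiled on the 10x Chromium 3′ v3.1 platform after sorting by DAPI, and the 8 WT libraries are reported. The authors deposited unnormalised UMI counts of 32285 genes in each of the barcodes that Cell Ranger called as cells, aligned to mm10 with reads on pre-mRNA counted. The file headers name Cell Ranger 6.1.2 and the labels 3.1.0. Reads on introns count toward a gene, so long genes gain and overlapping genes may share reads.

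Counts were summed per library over barcodes with at least 200 genes and at most 5% mitochondrial UMIs. The upper limit of 4000 genes and the removal of doublets, which the study applied, were left out, so doublets are included. The two-sided quasi-likelihood test of edgeR 4.0.16 (R 4.3.3), after filterByExpr and TMM scaling, compared 4 DMXAA with 4 vehicle libraries, the same without DMXAA replicate 3, and, with 4 groups in 1 fit, the WT with the KO effect. P-values were adjusted by Benjamini-Hochberg over all genes tested. Values per library are CPM scaled by TMM, which needs most genes to be unchanged. Scripts were tested on simulated data, with changes given to genes with a mean of at least 1 CPM. With 8 libraries, 4% of 1.5-fold and 54% of 2-fold changes were called, beside 9 unchanged genes. Without replicate 3 it was 36% and 86%, beside 8 unchanged genes. A gene that was not called may therefore still have changed. Depth was 65524033 to 90156541 UMIs per WT library, and counting intervals and floors cover counting error only. Quality measures were compared by exact permutation tests over the 70 arrangements. Alternatives were DESeq2 1.42.0, voom with library weights (limma 3.58.1), other size factors and filters, and each library left out. Python 3.11.15, NumPy 2.4.6, pandas 2.3.3, SciPy 1.17.1 and matplotlib 3.10.9 were used otherwise.

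Named genes were, for each of the first 2 comparisons, the 10 strongest called rises and 10 strongest called falls in log2 fold change among genes with a mean of at least 1 CPM over the 8 libraries and groups that do not overlap, and the 5 in each direction with the largest difference in CPM. For the difference between genotypes they were the 5 largest in each direction, and members of the gene lists could be named too. *Epsti1*, *Gm19684*, *Pomc*, *C4b*, *Ctss*, *Plagl1*, *Gh*, *Prl*, *Malat1* and *Ube3a* were chosen after their values were seen. A few genes of the lists are not reported here by name. Members and lists were chosen with earlier results of these data known. Gene positions are from GENCODE M21 on GRCm38 for 32158 of 32285 genes.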

Additional observations from a re-analysis of the deposited data

Results flagged for a closer look

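The highest or lowest value of a group of 4 was far from the other values in 15 of 100 groups examined (by Dixon's ratio of gap to range at its 95% limit). The usual chance rate of 1 of 20 does not apply here. Many groups are genes named from these same data, and all come from the same 8 libraries. *Ifi27* and *Gabra4* were named for calls made only without replicate 3. Of the 15, 6 were DMXAA replicate 1 and 7 DMXAA replicate 3. Replicate 1 was far above the other DMXAA libraries for *Eif2ak2* (37.5 CPM, others up to 17.7), *Oasl2* (42.6 CPM), *Usp18* (16.01 CPM), *Phf11d* (5.93 CPM) and *Oas2* (5.78 CPM), and for the median log2 ratio of the interferon-stimulated list (1.98).

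Replicate 3 was below the others for *Ifi27* (9.83 CPM) and the scaling factor (0.785). It was above them for *Gabra4* (168 CPM), nuclei kept (11561), summed markers of excitatory neurons (1766 CPM), CA1 pyramidal neurons (1891 CPM) and neutrophils (34.0 CPM). Among vehicle libraries, replicate 4 was low for *Xaf1* (2.43 CPM) and replicate 2 high for endothelial markers (28.6 CPM).

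The effect of DMXAA differed between WT and KO (edgeR's interaction term), among others by 3.71 for *Ddx60* on the log2 scale, 2.73 for *Lgals3bp*, 2.69 for *Sp100*, 2.61 for *Iigp1*, 2.59 for *Slfn5*, 2.25 for *Eif2ak2*, 1.93 for *Trim30a*, 1.90 for *Xaf1*, 1.16 for *B2m* and -1.42 for *Fcrls*. Genotype, age and any difference in preparation cannot be told apart in these differences.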

How the results depend on the processing

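The count of 23 called genes with 8 libraries became 136 with DESeq2, 46 with RLE size factors, 49 without a filter on low counts, 1 with a mean of at least 1 CPM, 111 with voom and library weights (replicate 3 had a weight of 0.0753), 48 with at most 4000 genes per barcode and 100 with 4 groups in the fit. Leaving out each library in turn gave 0 to 68. It gave 0 (418 to 917 genes at an unadjusted p under 0.05) without any 1 vehicle library or DMXAA replicate 2, 36 without DMXAA replicate 1, 68 without 3 and 31 without 4. The count of 68 without replicate 3 became 661 with DESeq2 (417 higher and 244 lower), 36 with a mean of at least 1 CPM, 163 with at most 4000 genes and 243 with 4 groups. Leaving out a further library gave 10 to 154, lowest without vehicle replicates 4 (10), 3 (12) and 1 (14), then 43 without DMXAA replicate 2, 106 without DMXAA replicate 4 and highest without vehicle replicate 2. The count of 11 differences between genotypes became 129 with DESeq2, 18 with RLE size factors and 20 with at most 4000 genes. It ran from 3 to 34 with 1 library left out, with 34 without WT DMXAA replicate 3, 28 without 1, 20 without 4, 24 without WT vehicle replicate 2, and 3 or 4 without WT vehicle replicates 1, 3 or 4, KO vehicle replicates 2 or 3, or KO DMXAA replicates 1, 2 or 3. The median of the interferon-stimulated list stayed between 1.14 and 1.65 with 8 libraries and between 1.15 and 1.87 without replicate 3 over libraries left out, and between 1.39 and 1.55 and between 1.48 and 1.70 under the other settings. The mitochondrial share, 0.00334 percentage points higher with DMXAA, was -0.0430 points with all deposited barcodes. None of the genes refitted under these settings changed direction. The causes were not tested. Genes with a mean under 1 CPM rest on few UMIs, and changes in cell type shares cannot be seen in summed libraries. No paired analysis was possible because the replicate numbers follow the order of the samples and tie no DMXAA animal to a vehicle animal.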
